A study of Mus musculus with 8 samples.

Results

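Chromatin accessibility was followed at 5 circadian clock genes in mouse gastrocnemius, a calf muscle: Arntl (the symbol under which Bmal1 is listed), Npas2, Clock, Cry1 and Nfil3. Every region of the deposited ATAC-seq table annotated to one of these gene names was taken, which gave 251 of 489637 regions. Npas2 held 111 of them, Arntl 82, Cry1 25, Clock 17 and Nfil3 16. The libraries came from 6-month-old mice, and all 8 carried the same genotype, Cre+:iMSBmal1 fl/fl, in which a Cre recombinase can act on floxed copies of Bmal1. The 4 control libraries were from vehicle-treated mice (Vehicle) and the other 4 from tamoxifen-treated mice (iMSBmal1KO). No group received tamoxifen without Cre, so the loss of the gene and the drug cannot be told apart. The promoter that drives Cre, the deleted part of Bmal1 and the time of day of collection are not given in the sources used here. Each library came from homogenised whole muscle, so a change in signal per nucleus and a change in the share of nuclei of one cell type cannot be told apart. The labels number the libraries but do not say that each came from its own mouse, and the p-values then measure only the spread between these samples.

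ATAC-seq reads out open DNA through a transposase that inserts adapters where chromatin is accessible. In the clock, the protein of Bmal1 pairs with CLOCK or NPAS2 and activates genes that carry E-boxes, among them the Per and Cry genes and the genes of the nuclear receptors REV-ERBα and REV-ERBβ. REV-ERB receptors bind response elements shared with the ROR receptors and recruit corepressors with a histone deacetylase, while RORs activate from the same elements. Arntl, Npas2, Clock, Cry1 and Nfil3 are known as genes under this REV-ERB and ROR control. The comparison asked whether accessibility at the 5 genes differed between the groups, and whether any difference was shared by them or was larger at Npas2.

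The promoter sequences show where the regions described below lie. They are the RefSeq windows of assembly GRCm38.p6, 250 bases before to 50 after each gene start, and all 5 genes had at least 1 window. The 250 bases before one Arntl start (chr7:113207215-113207464, + strand) lie inside the most accessible Arntl region and are shown because that region differed little between the groups. Capitals mark ATTGG, which is CCAAT on the other strand:
Arntl: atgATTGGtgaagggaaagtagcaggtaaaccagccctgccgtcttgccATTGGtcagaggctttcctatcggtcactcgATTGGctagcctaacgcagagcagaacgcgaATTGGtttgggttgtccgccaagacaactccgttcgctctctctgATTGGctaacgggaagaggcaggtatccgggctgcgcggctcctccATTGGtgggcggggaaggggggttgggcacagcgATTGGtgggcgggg
CCAAT was found on either strand 8 times in the whole 300-base window, counting 1 match after the start. Of the 32851 windows in the RefSeq table, 0.00304% held as many and 37.4% held at least 1. The 250 bases before the Npas2 start (chr1:39194022-39194271, + strand) are shown because their last 117 bases, in capitals, lie in a region that was more accessible in iMSBmal1KO:
Npas2: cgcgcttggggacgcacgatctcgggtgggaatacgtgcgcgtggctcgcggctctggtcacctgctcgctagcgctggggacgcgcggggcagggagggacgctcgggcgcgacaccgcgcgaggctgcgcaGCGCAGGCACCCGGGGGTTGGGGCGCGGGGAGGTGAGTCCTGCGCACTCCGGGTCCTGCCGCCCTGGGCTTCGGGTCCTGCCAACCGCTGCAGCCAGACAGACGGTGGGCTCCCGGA

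Short stretches with a match to a known clock element are shown with the match in capitals. The motifs searched on both strands were AGGTCA as the core of the REV-ERB and ROR element, its longer forms TAGGTCA and (with G) TGGGTCA, and each longer form with an A and any 2 bases before it, so that these matches overlap. The E-box was searched as CACGTG, the D-box, which the Nfil3 protein binds, as TTANNTAA, and the CCAAT box as above. The Arntl stretch starts 20 bases after the start of a second RefSeq window, the Cry1 stretch starts 70 bases before the start, and the Nfil3 stretch holds TAGGTCA on the opposite strand:
Arntl (chr7:113207531-113207560, + strand): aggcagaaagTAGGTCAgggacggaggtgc
Cry1 (chr10:85185095-85185124, - strand): tgccggtggtCACGTGgggtgcatgccgcc
Nfil3 (chr13:52981032-52981061, - strand): cgctcggaacTGACCTActaacacacatct
Of all windows, 2.61% held TAGGTCA and 7.15% held CACGTG. The Arntl match had the preceding A as well, a form that 0.7% of windows held. In the Npas2 window none of these 8 motifs was found. That window does not reach the Npas2 promoter regions farther before the start, described below, and those were not searched. Of the 3 Clock windows, the one starting farthest inside the gene held AGGTCA, a motif in 16.3% of windows. A match is a string of letters and was not tested for binding.

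Signal is given in the deposited unit, read counts scaled by 1 factor per library. Depth ran from 4.31 to 29.5 M read equivalents (M, units of 1e+06), and vehicle replicate 4 was the shallowest library. It also had 16.5% of its signal on the mitochondrial genome, where the other 7 had 1.11% to 5.51%. Its log2 signal was lower than the mean of the other vehicle libraries by a median of 0.47 at the 19453 tested regions with a mean signal of 100 or more, and by 0.25 at weaker ones. The skeletal muscle fibre markers summed to promoter signals of 11806 to 20156 in vehicle and 14516 to 18936 in iMSBmal1KO, so the groups overlapped. Markers of other cells gave 419 to 543 and 409 to 499 for satellite cells, 374 to 571 and 423 to 593 for fibro-adipogenic cells, and 50.2 to 84.4 and 62.7 to 73.2 for endothelial cells, again overlapping, while no macrophage marker had a tested promoter. The lists held 10 fibre genes but 3 or 4 for each other cell type, so the sums do not give relative cell content. Cdh15 gave most of the satellite cell signal, with a mean of 373 in vehicle, and Cdh5 and Kdr gave all of the endothelial signal. By limma's test 0 of the 21 tested markers changed as gene sums after adjustment, and 1, a fibre gene, was higher at an unadjusted p under 0.05.

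Of the 251 regions, 96 passed the filter on low signal and were tested within a fit of all 124901 tested regions. The filter counted libraries of either group, so a region weak in 1 group could pass through the other group alone. Of these 96, 10 were more accessible in iMSBmal1KO past the threshold of 0.05 on the p-value adjusted over all tested regions (limma, Benjamini-Hochberg) and 0 were less accessible. By the same rule 0.0312% of all tested regions were called higher and 0.0568% lower. With no adjustment, 42 were higher at p under 0.05 and 0 lower, against 6.59% and 2.63% of all regions. Npas2 held 9 of the 10 called regions and Arntl 1, and limma-voom called 9 and 2. The 4 libraries of each group did not overlap, with iMSBmal1KO higher, at 32 of the 96 (33.3%), against 3.62% of all regions, and lower at 0, against 1.87%. Without Npas2 this was so at 13 of 65 regions (20%), 11 of them in Arntl, 1 in Clock, 1 in Cry1 and 0 in Nfil3. The log2 change was positive at 55 of these 65 regions: 34 of 37 in Arntl, 4 of 4 in Clock, 8 of 9 in Cry1 and 9 of 15 in Nfil3. Their median was 0.50, where the change was positive at 62% of all tested regions, with a median of 0.12. The Nfil3 count was thus near the share of all regions. That overall median fell to 0.01 with trimmed-mean scaling, so the choice of scaling moved the changes by about 0.1.

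Summed over all regions of a gene, the signal rose past the threshold at Npas2 and at none of the other 4. Among 19404 genes, 19 (0.0979%) were higher and 14 (0.0722%) lower, or 21 and 42 with trimmed-mean scaling. The log2 change was 1.32 ± 0.15 (SE, n = 4 per group) at Npas2, with an adjusted p of 4.45e-04 (limma over all genes), the smallest of any gene. It was 0.60 ± 0.20 at Clock (adjusted p = 0.414), 0.52 ± 0.19 at Cry1 (0.454), 0.46 ± 0.14 at Arntl (0.318) and 0.13 ± 0.18 at Nfil3 (0.784), next to a median of 0.12 over all genes. All 4 iMSBmal1KO sums lay above all 4 vehicle sums at Npas2, Arntl, Clock and Cry1, as at 4.04% of all genes. For these 4 genes the exact two-sided permutation test gave p = 0.0286, the smallest that 70 arrangements of 4 against 4 libraries allow. At Nfil3 the groups overlapped (exact permutation p = 0.657). Without vehicle replicate 4 the changes were 1.27 at Npas2, 0.37 at Arntl, 0.38 at Clock, 0.29 at Cry1 and -0.06 at Nfil3, next to a median of 0.06 over all genes, and Npas2 alone passed the threshold.

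The difference between Npas2 and each other gene was tested within libraries, where the scaling between libraries cancels. From vehicle to iMSBmal1KO, the Npas2 sum gained on that of Arntl by 0.86 on the log2 scale, on Clock by 0.72, on Cry1 by 0.80 and on Nfil3 by 1.19. Each of the 4 differences had an exact two-sided permutation p of 0.0286, adjusted over the 4 to 0.0286, and in each the iMSBmal1KO libraries lay above every vehicle library. That p is the smallest that 70 arrangements allow. The 4 tests share the same Npas2 values and are not independent. The genes were chosen with earlier results of these data known, so the p-values describe the separation and do not allow for that choice. Each difference was positive with any 1 library left out, at 0.64 or more, but without any 1 iMSBmal1KO library the adjusted exact permutation p was 0.0571 for each, above the 0.05 threshold.

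**Figure D1:**
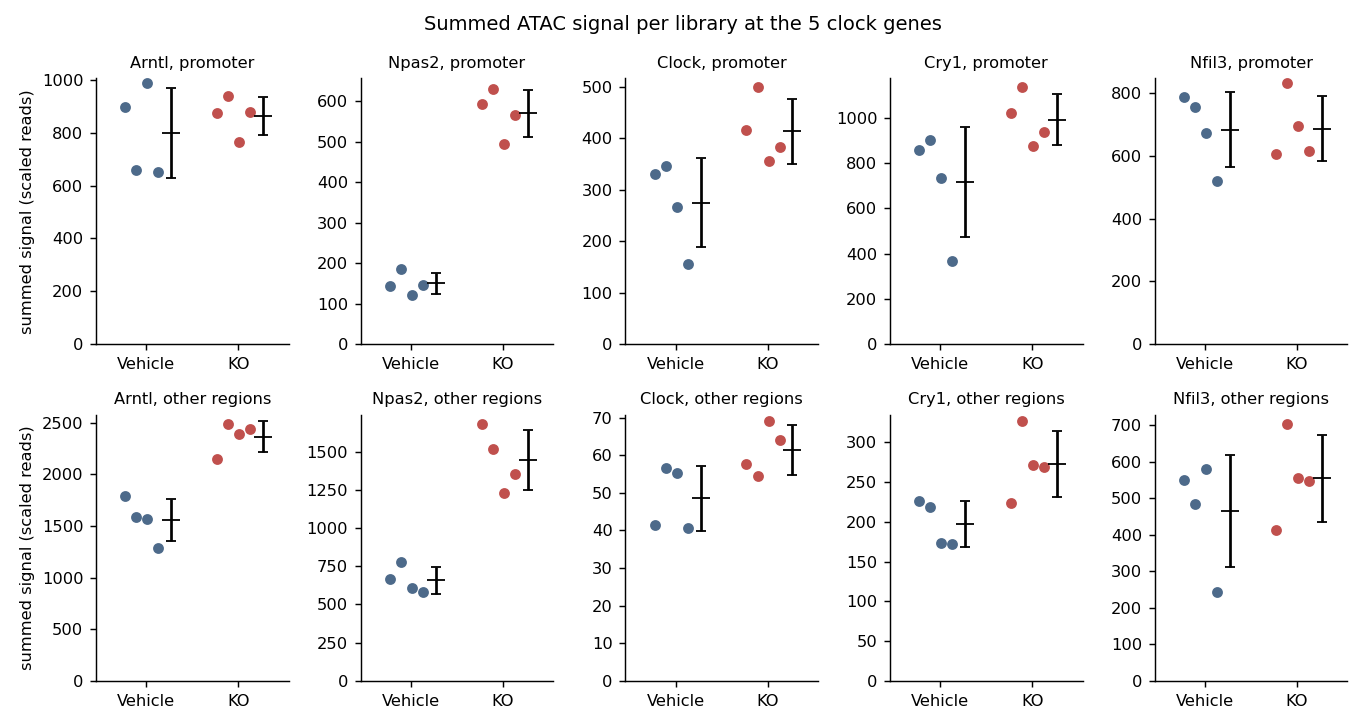
Summed signal (scaled reads, axes from 0) of the 5 genes in each library, at promoters within 1000 bp of an annotated start (top) and at all other regions (bottom). Each point is a library, KO stands for iMSBmal1KO, and bars give the mean ± SD of 4 libraries; the groups stand apart at Npas2 in both rows, at Arntl in the bottom row and at Clock in the top row.

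NPAS2 is a paralogue of CLOCK and can take its place as the partner of BMAL1. Its promoter signal, summed over 12 regions within 1000 bp of an annotated start, read 145, 186, 123 and 147 with vehicle, and 593, 631, 494 and 566 in iMSBmal1KO. The groups stood far apart, and the lowest iMSBmal1KO library was above the highest vehicle library. The mean rose from 150 ± 26.3 to 571 ± 58.0 (SD, n = 4 each), 3.80-fold, with a log2 change of 1.93 ± 0.18 (SE) and an adjusted p of 1.38e-07 (limma), the smallest of the 15978 genes with a tested promoter. Of those genes 0.0376% were called higher and 0.0626% lower.

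Npas2 has several annotated starts, and both its most accessible promoter region and the region with its largest change lay before the first of them. The most accessible promoter region (chr1:39192753-39192965, at -765 bp, where a minus sign means before the start) had signals of 50.1, 61.6, 32.4 and 37.5 in vehicle and 185, 235, 181 and 212 in iMSBmal1KO. Its log2 change was 2.17 ± 0.24, with an adjusted p of 2.98e-04 (limma). Its neighbour (chr1:39192970-39193108) was weak in vehicle, at 5.33, 12.3, 2.54 and 6.25, and reached 77.0, 68.6, 47.7 and 52.7 in iMSBmal1KO. This was the largest change of the 31 tested Npas2 regions, at 3.17 ± 0.37 on the log2 scale (adjusted p = 4.04e-04). The region passed the filter only through the iMSBmal1KO libraries, so the size of its change is descriptive. The region at the RefSeq start whose bases are in capitals above (chr1:39194155-39194408) went from 32, 30.8, 16.5 and 18.8 to 93.3, 133, 107 and 140, a log2 change of 2.26 ± 0.27 (adjusted p = 6.83e-04). A further called promoter region (chr1:39193654-39193803) was weaker, at 6.25 to 10.2 in vehicle and 21.3 to 36.8 in iMSBmal1KO. Its adjusted p was 0.0399, and it missed the threshold without vehicle replicate 1 or 3 or without any 1 iMSBmal1KO library (0.0684 to 0.250), and with limma-voom (0.0610), so the 9 regions limma-voom called were not the same 9. A region 935 bp after a start (chr1:39195147-39195396), singled out after its values were seen, had a change of 2.13 with an adjusted p of 0.0679.

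The gain at Npas2 extended into the gene body. Outside the promoters the sum was 665, 776, 608 and 582 in vehicle and 1683, 1519, 1227 and 1352 in iMSBmal1KO, a 2.20-fold rise of the mean with no overlap. The log2 change was 1.13 ± 0.14 (adjusted p = 0.00185), the smallest p among genes with a higher sum, where 0.162% of 11135 genes were called higher and 0.144% lower. A region 2022 bp after the start (chr1:39196234-39196447) had 48.0, 48.3, 35 and 34.4 in vehicle and 169, 185, 144 and 169 in iMSBmal1KO, a log2 change of 2.00 ± 0.23 (adjusted p = 3.97e-04). A pair of regions about 35 kb inside the gene rose from a low signal. The first (chr1:39228509-39228783) went from between 9.38 and 18.1 to between 38.9 and 68.0, a log2 change of 2.13, and the second (chr1:39229415-39229986) from between 3.2 and 11.3 to between 27.6 and 70.6, a log2 change of 2.74. Their adjusted p-values were 0.00462 and 0.00284. Deeper still, an intron 7 region (chr1:39318033-39318339, 123821 bp from the start) went from 44.8, 54.5, 42.6 and 40.6 to 134, 194, 129 and 124, a log2 change of 1.63 ± 0.23 (adjusted p = 0.00461). An intron 5 region (chr1:39306124-39306400) rose by 2.20 (adjusted p = 0.0157), but missed the threshold without vehicle replicate 3 or iMSBmal1KO replicate 2, 3 or 4 (0.0751 to 0.124).

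Not every Npas2 region followed to the same degree. The most accessible region outside the promoters (chr1:39284846-39285071, intron 2) had 115, 95.6, 96.6 and 71.9 in vehicle and 235, 187, 113 and 156 in iMSBmal1KO. The groups overlapped slightly, and its log2 change of 0.83 ± 0.24 was not called (adjusted p = 0.339). All 31 tested Npas2 regions had a positive change, from 0.22 to 3.17 with a median of 1.13, and at 19 the groups did not overlap. Some of them passed the filter only through the iMSBmal1KO libraries, such as chr1:39195147-39195396, with at most 6.40 in vehicle. Too few vehicle libraries reached the filter rate at some called regions as well. These were chr1:39192970-39193108, chr1:39193654-39193803, chr1:39228509-39228783, chr1:39229415-39229986 and chr1:39306124-39306400. For such regions a positive change was partly fixed by the filter, so these counts and the sizes of those changes are descriptive. The sum over start regions went from 137 to 534, over introns from 414 to 879, and over the 44 regions labelled as 5′ UTR exon from 231 to 577. That label covers the whole span from start to coding sequence in this table, with a median distance from the start of 17272 bp, so it includes introns. The 4 coding exon regions, none of which passed the filter, summed to 24.9 and 26.7. Within libraries the promoter gained 0.80 more on the log2 scale than the rest of the gene, with no overlap between groups (exact permutation p = 0.0286, adjusted over the 5 genes 0.0714).

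**Figure D2:**
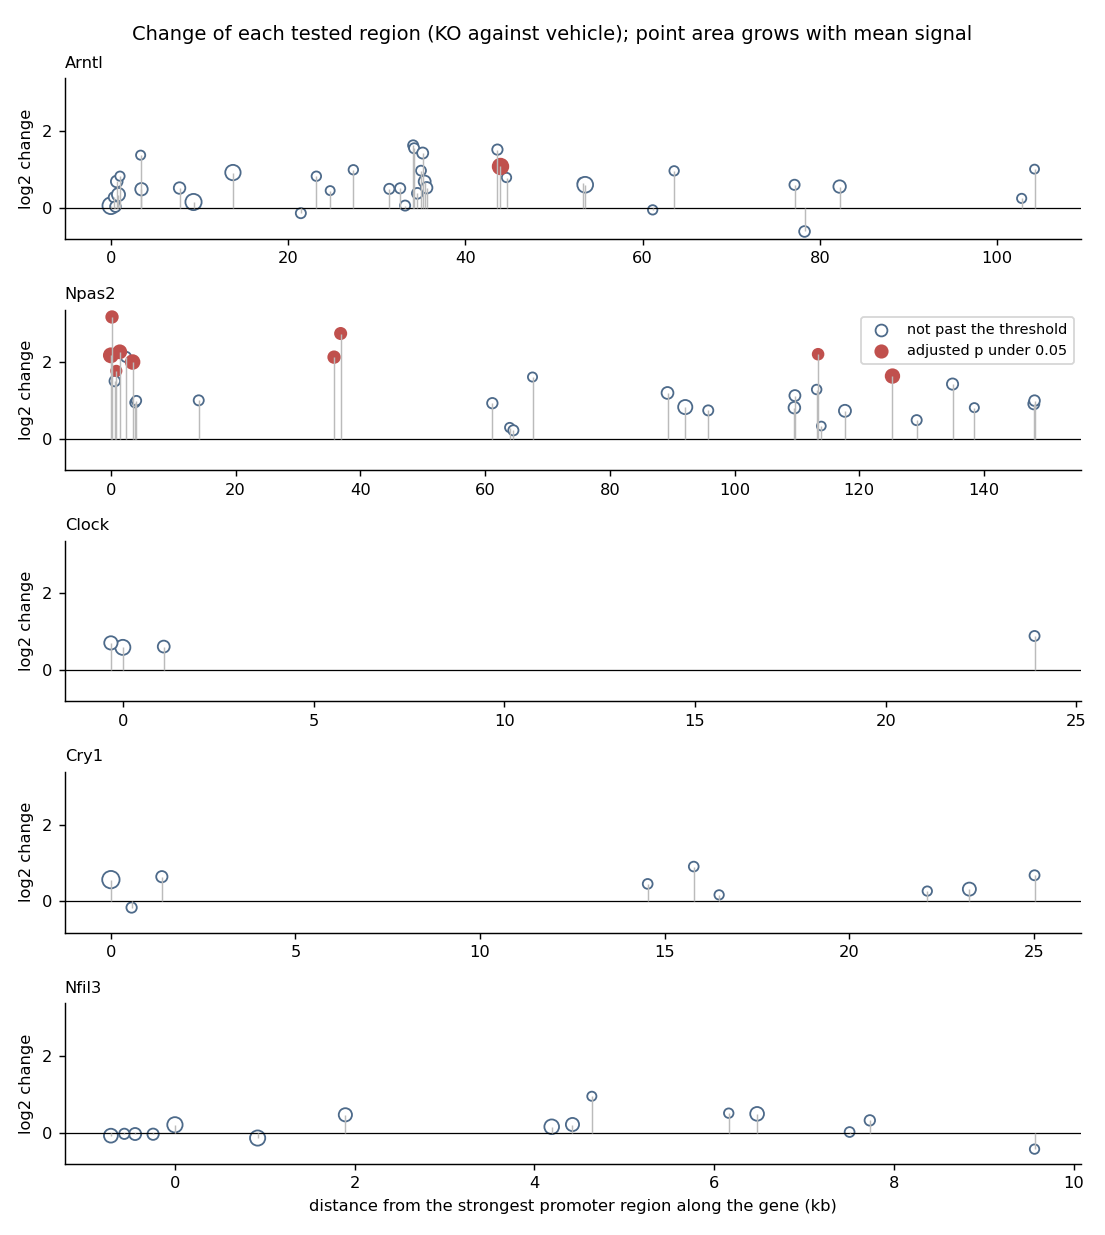
Log2 change (iMSBmal1KO, written KO, against vehicle) of each of the 96 tested regions against the distance in kb along the gene from the gene's most accessible promoter region. Each point is a region, its area grows with its mean signal, and filled points have an adjusted p under 0.05; every Npas2 point is above 0, and the filled Npas2 points fall near the promoter, near 36 kb and beyond 110 kb.

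CLOCK is the usual partner of BMAL1, and its gene has few regions in the table. At promoters the sum of 3 regions was 330, 346, 266 and 156 in vehicle and 416, 499, 355 and 383 in iMSBmal1KO. The groups did not overlap, as at 3.67% of all genes with a tested promoter, and the closest libraries, at 346 and 355, were near each other. The mean went from 275 ± 86.2 to 413 ± 62.4 (SD), with a log2 change of 0.64 ± 0.21 that was not called (adjusted p = 0.382, limma). The exact permutation p was 0.0286. Vehicle replicate 4 was the lowest library: without it the change was 0.39 (adjusted p = 0.751), and without vehicle replicate 2 it was 0.77 (adjusted p = 0.0289). In the fit without vehicle replicate 2, 342 of 15978 promoter sums were called higher, against 6 with all libraries. The median promoter change over all genes was 0.23 in that fit and 0.16 with all libraries.

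All 4 tested Clock regions had a positive change between 0.59 and 0.89 and an unadjusted p under 0.05, and 0 were called by limma or limma-voom. The most accessible (chr5:76304652-76304998, at the start) had 217, 218, 175 and 96.9 in vehicle and 277, 340, 209 and 215 in iMSBmal1KO, and here the groups overlapped. Its log2 change was 0.59 ± 0.26 (adjusted p = 0.516), and 0.33 without vehicle replicate 4. The abutting region (chr5:76304999-76305277) had a change of 0.71 (adjusted p = 0.495), and 0.43 without that library. At a region 917 bp after a start (chr5:76303630-76303875), named after its values were seen, vehicle had 36.2, 40.1, 28.6 and 25.01 and iMSBmal1KO 57.4, 61.9, 40.6 and 41.4, with no overlap by a narrow margin. The only tested region farther inside the gene (chr5:76280768-76281075) had 6.40 to 19.7 and 16.7 to 26.1. The sum outside the promoters was small, 48.5 ± 8.56 and 61.3 ± 6.58, and the groups overlapped.

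Arntl is the gene the genotype targets. Since the deleted part is not given, no region could be assigned to it, and the labels were not checked at the DNA level. The lowest change among its 37 tested regions was in a coding exon (chr7:113285062-113285935), with 24.5, 24.7, 21.0 and 34.4 in vehicle and 8.56, 18.4, 39.4 and 11.3 in iMSBmal1KO. There 3 iMSBmal1KO libraries were below all vehicle libraries and 1 was above them, and the log2 change of -0.62 ± 0.39 was not called (adjusted p = 0.609).

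At the Arntl promoter the groups overlapped widely. The promoter sum was 898, 658, 987 and 650 in vehicle and 875, 937, 766 and 879 in iMSBmal1KO, a log2 change of 0.14 ± 0.18 (adjusted p = 0.751), which went to 0.00 with cyclic loess scaling. The most accessible Arntl region (chr7:113206953-113207503), which contains the CCAAT-rich bases above, had 710, 480, 724 and 450 in vehicle and 628, 673, 503 and 605 in iMSBmal1KO. Its log2 change was 0.05 ± 0.20, and the sign turned with trimmed-mean scaling (-0.06). The region that holds the TAGGTCA stretch (chr7:113207530-113207580), named for that sequence after values were seen, was weak, at 12.8, 17.5, 26.7 and 6.25 in vehicle and 22.7, 19.2, 14.3 and 13.8 in iMSBmal1KO. Its log2 change was 0.27 ± 0.39, and -0.08 without vehicle replicate 4.

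Outside the promoters Arntl was higher in every iMSBmal1KO library. The sum was 1791, 1590, 1570 and 1291 in vehicle and 2148, 2485, 2388 and 2436 in iMSBmal1KO, with no overlap, as at 4.46% of genes. The mean was 1561 ± 205 and 2364 ± 149 (SD, n = 4), and the log2 change of 0.61 ± 0.13 just missed the threshold (adjusted p = 0.0558, limma). It passed in 4 of 15 alternatives: with trimmed-mean scaling (0.49, adjusted p = 0.0228), with cyclic loess (0.58, 0.00158), without vehicle replicate 4 (0.52, 0.0396) and without iMSBmal1KO replicate 1 (0.65, 0.0453). In the others it did not pass, with an adjusted p of up to 0.240 (limma, without iMSBmal1KO replicate 2). Within libraries the Arntl promoter lost 0.47 on the log2 scale against the rest of the gene, the opposite direction to Npas2. The groups did not overlap (exact permutation p = 0.0286, adjusted over the 5 genes 0.0714), but by a narrow margin. The lowest vehicle library was at -1.27 and the highest iMSBmal1KO library at -1.29.

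The called Arntl region (chr7:113250869-113251387) lies 43343 bp after the start, within the span before the coding sequence. It had 199, 244, 140 and 166 in vehicle and 336, 392, 412 and 419 in iMSBmal1KO, a log2 change of 1.08 ± 0.21 (adjusted p = 0.0468). It missed the threshold without vehicle replicate 1 or 3 or without any 1 iMSBmal1KO library (0.0524 to 0.265). The other 3 strong regions after the start differed among themselves. At 8795 bp (chr7:113216321-113216781) the groups overlapped, with 508, 350, 425 and 291 against 375, 514, 394 and 438 and a change of 0.15 (adjusted p = 0.820). Named after their values were seen, the regions at 13281 bp (chr7:113220807-113221191) and 52995 bp (chr7:113260521-113260977) did not overlap. The first had 242, 172, 159 and 141 in vehicle and 282, 376, 332 and 336 in iMSBmal1KO, a log2 change of 0.91 ± 0.21 (adjusted p = 0.134). It was called in 2 of 17 alternative settings, with trimmed-mean (0.0433) and loess scaling (0.0247), and its adjusted p was up to 0.484 (limma, without iMSBmal1KO replicate 2). The second had 303, 279, 258 and 178 against 328, 361, 378 and 457, a log2 change of 0.60 (adjusted p = 0.445). Of the 7 tested regions from 113241280 to 113242943, near an annotated internal transcript, 0 were called in the fit of all libraries. All 7 had a positive change, as had 62% of all tested regions, and the adjusted p ran from 0.061 to 0.684. This stretch was not set in advance. Some of the 7 passed the filter only through the iMSBmal1KO libraries, such as chr7:113241280-113241388, with 3.13 to 11.3 in vehicle. A positive change was partly fixed there, so the count is descriptive. The smallest adjusted p was at chr7:113242327-113242492, again named after its values were seen. This region had 14.9, 12.3, 14.6 and 15.6 in vehicle and 38.5, 40.1, 48.9 and 33.9 in iMSBmal1KO. Its log2 change was 1.42 ± 0.28 (adjusted p = 0.061), and it was called in 3 of 17 alternative settings, among them without vehicle replicate 4 (0.0208). Its highest adjusted p was 0.284 (limma), without iMSBmal1KO replicate 3.

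**Figure D3:**
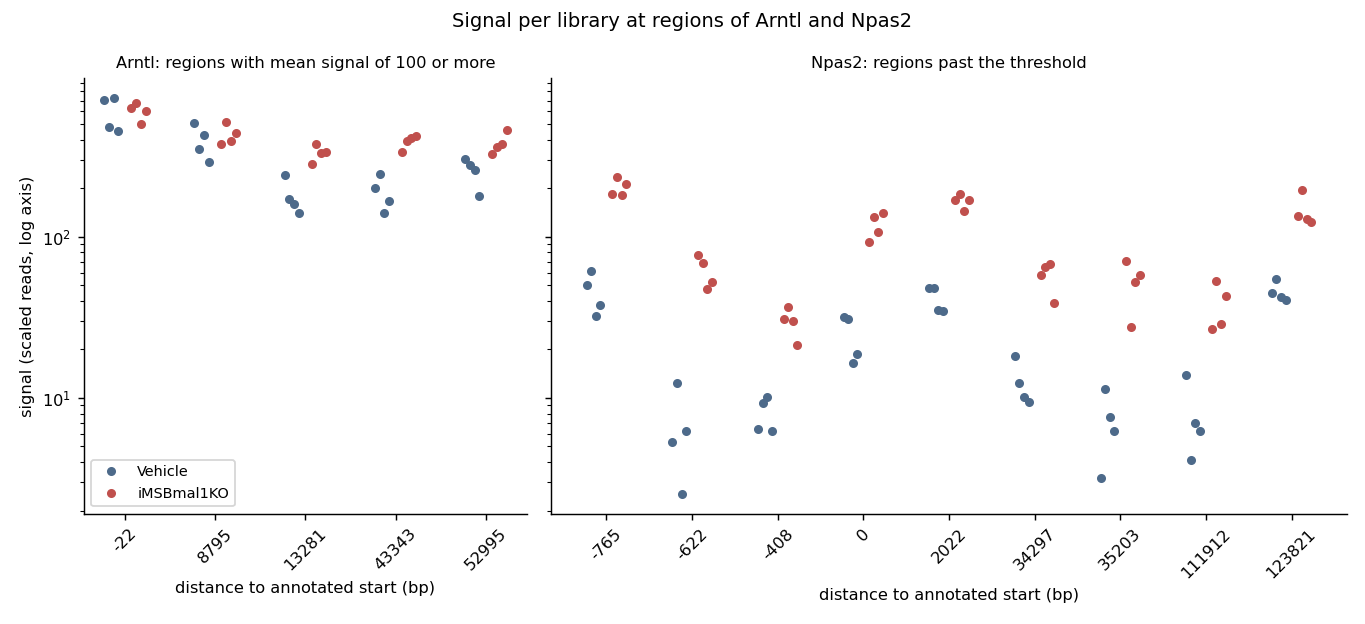
Signal per library (scaled reads, log axis) at the 5 Arntl regions with a mean signal of 100 or more (left) and at the 9 called Npas2 regions (right), placed in order and labelled by the distance to the annotated start in bp. Each point is a library; at every Npas2 region shown the groups stand apart, while the Arntl regions at -22 and 8795 bp overlap and those at 13281, 43343 and 52995 bp do not.

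CRY1 represses the activity of BMAL1 with CLOCK or NPAS2. Its promoter sum was 858, 901, 735 and 366 in vehicle and 1019, 1135, 877 and 937 in iMSBmal1KO. One iMSBmal1KO library lay within the vehicle range, and vehicle replicate 4 was far below the rest. The log2 change was 0.55 ± 0.22 (adjusted p = 0.440, limma), and 0.25 without vehicle replicate 4 (adjusted p = 0.833). Nearly all of this signal came from 1 region (chr10:85184876-85185697) that contains the E-box stretch above, with 837, 886, 713 and 341 in vehicle and 995, 1109, 864 and 914 in iMSBmal1KO, a change of 0.57 ± 0.25 (adjusted p = 0.521) that fell to 0.26 without vehicle replicate 4. Outside the promoter the sum was 226, 219, 173 and 172 against 224, 326, 272 and 268, and again 1 iMSBmal1KO library was within the vehicle range (log2 change 0.46 ± 0.16, adjusted p = 0.328). The most accessible intron region (chr10:85161935-85162130) had 40.6 to 90.6 and 68.1 to 119. The intron region with the smallest p (chr10:85169430-85169568) had 6.35 to 11.7 and 13.1 to 25.1. A region 278 bp after the start (chr10:85184665-85184786) was the only one of the 9 tested with a negative change, -0.16. By limma and limma-voom 0 of the 9 Cry1 regions were called, and 2 were higher at an unadjusted p under 0.05.

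NFIL3 is a repressor that binds D-box elements in opposition to DBP and related activators. At its promoters the groups overlapped, with sums of 787, 756, 672 and 519 in vehicle and 606, 831, 697 and 615 in iMSBmal1KO. The log2 change was 0.01 ± 0.18 (adjusted p = 0.981, limma), and the sign turned under trimmed-mean (-0.10) and loess (-0.14) scaling. Its most accessible start region (chr13:52981239-52981540) had 262, 259, 207 and 194 in vehicle and 242, 324, 241 and 256 in iMSBmal1KO, a change of 0.21 ± 0.20. The TAGGTCA stretch lay in no region annotated to Nfil3. The other 4 start regions had changes between -0.08 and -0.03. Outside the promoters the sum was 549, 485, 581 and 244 against 412, 704, 556 and 547 (0.31 ± 0.25, adjusted p = 0.685), with vehicle replicate 4 far below the other libraries and a change of 0.02 without it. The strongest of these regions (chr13:52977067-52977329) had 90.7 to 218 and 104 to 254. Among the 15 tested Nfil3 regions the smallest p was at chr13:52974804-52975022, with 91.7, 98.6, 113 and 50.03 against 95, 158, 91.8 and 147 and a change of 0.49 (adjusted p = 0.576), which was 0.24 without vehicle replicate 4. The lowest change was -0.43 at chr13:52971748-52971905 (adjusted p = 0.745). By limma and limma-voom 0 of the 15 were called, and 0 had an unadjusted p under 0.05.

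**Figure D4:**
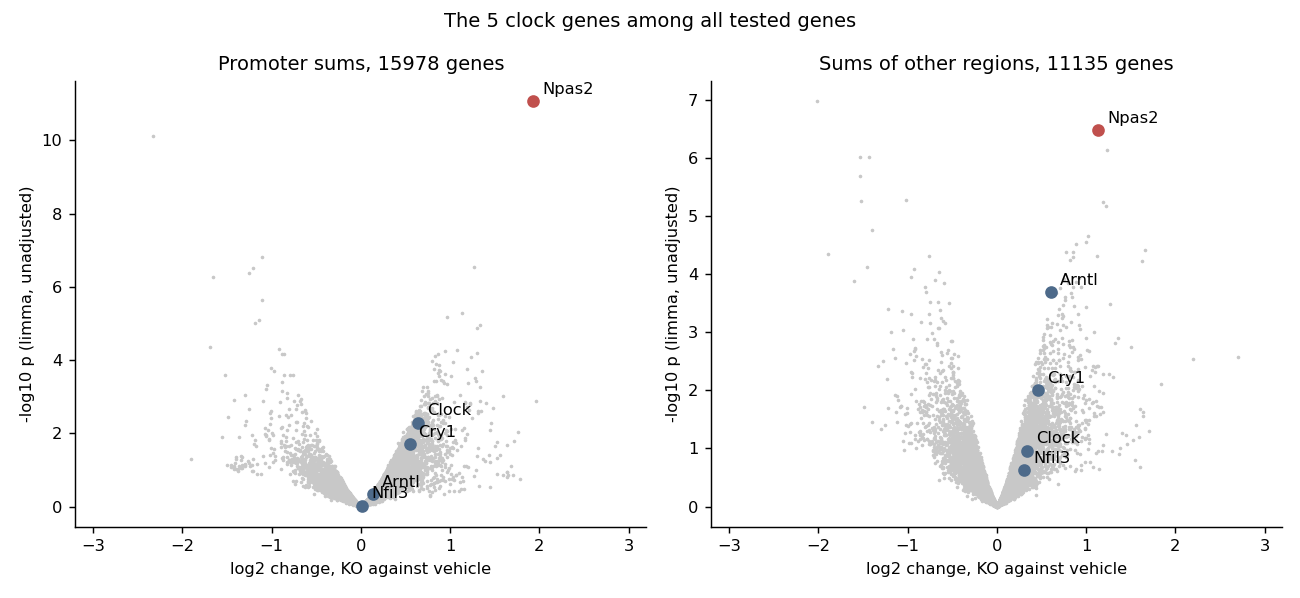
Log2 change (iMSBmal1KO, written KO, against vehicle) and -log10 of the unadjusted limma p of promoter sums of 15978 genes (left) and of sums over other regions of 11135 genes (right). Each grey point is a gene and the 5 clock genes are named; Npas2 has the smallest p on the left, while Arntl is near 0 on the left and at 0.61 on the right.

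Other genes of the pathway were read from the same fits. Of the 5 REV-ERB and ROR receptor genes 0 changed as gene sums by limma, and none had an unadjusted p under 0.05. Of their 167 tested regions 1, at Rora, was called lower, and 5 were higher and 10 lower at an unadjusted p under 0.05. Of the 10 E-box driven clock genes 0 changed after adjustment, while 3 were lower and none higher at an unadjusted p under 0.05, against 1.71% lower and 8.52% higher of all genes. The list held Per1, Per2, Per3, Cry2, Dbp, Tef, Hlf, Bhlhe40, Bhlhe41 and Ciart. It left out Cry1 and the REV-ERB genes Nr1d1 and Nr1d2, also E-box driven, with changes of 0.52, 0.05 and -0.26. The 10 listed genes had a median log2 change of -0.23, with a positive change at 1 of 10, next to 0.12 over all genes. Of their 89 tested regions 1, at Per2, was called lower, and 19 were lower and 2 higher at an unadjusted p under 0.05. Of all tested regions 0.0568% were called lower, and 2.63% were lower and 6.59% higher at that unadjusted p.

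The genes whose summed signal was most like that of each of the 5 over the 8 libraries were ranked by Pearson r among 5615 genes with at least 5 tested regions. Arntl was followed most closely by Dupd1 (r = 0.996), Lrp4 (0.976) and Megf11 (0.972). For Npas2 they were Gm42906 (0.970), Chrna1 (0.963), which encodes a subunit of the muscle acetylcholine receptor and was called higher at 1.07 (adjusted p = 0.0346, limma), and Cept1 (0.963). Axin1 had the highest r for Cry1 (0.996), Urgcp for Clock (0.991) and Otulin for Nfil3 (0.981). Vehicle replicate 4 was the lowest of the 8 libraries in the summed signal of each of the 5 clock genes, and also in that of Dupd1, Lrp4, Megf11, Chrna1, Axin1, Urgcp and Otulin. Clock and Cry1 followed each other with r = 0.994, and Npas2 and Nfil3 with r = 0.276. These values describe 8 libraries that share depth and group.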

How the data were processed

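ATAC-seq signal in nuclei from gastrocnemius was compared between 4 vehicle and 4 iMSBmal1KO libraries. The authors deposited 1 table of signal per region and library with gene names, sections and distances to the start. Per the submitters' processing notes, Partek, Bowtie2, MACS2 and DESeq2 were used, and mm10 and GRCm39 are listed as builds. The role of each, duplicate removal and the shift of reads for the transposase are not given in the sources used here, and they could change the values. The table names no build. Of its gene names 82.7% matched RefSeq GRCm38.p6, and 99.9% of these overlapped the RefSeq gene. Coordinates are as the table lists them, counted from 1.

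In each library 98.3% to 99.8% of non-zero values of up to 1000 reads were whole multiples of 1 step, within 0.02 reads. The deposited signal was therefore read as counts scaled per library. A value divided by its library's step is called a read equivalent. Sections were taken as annotated. Promoter means within 1000 bp of an annotated start. A region was tested if 4 or more libraries held 0.762 read equivalents per M (1e+06) and the 8 together held 15.

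Log2(signal + 1) was tested with limma-trend with robust empirical Bayes (limma 3.58.1 in R 4.3.3) on the 8 libraries with a term for group alone, and p-values were adjusted by Benjamini-Hochberg over all regions. Changes are on this scale, which understates those of weak regions. Sums per gene, over all regions whether or not they passed the filter, were tested likewise over all genes. Single values were compared by exact two-sided permutation tests. The scripts were tested on simulated data. Named regions were, for each gene, the most accessible promoter and other region, each region past 0.05, and otherwise the smallest p in each direction; exceptions are stated. Members and lists were chosen with earlier results of these data known. One further list of pathway genes is not reported here. Alternatives covered pseudocounts, filters, scaling, limma-voom with quality weights, merging of abutting regions, promoter windows of 500 and 2000 bp, a threshold of 0.01, the replicate number as a block and leaving out each library. Python 3.11.15 with pandas 2.3.3 handled tables, and matplotlib 3.10.9 drew figures.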

Additional observations from a re-analysis of the deposited data

Results flagged for a closer look

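Of 94 groups of 4 library values examined at the 5 genes, 3 held a library far from the other 3, where chance gives about 1 in 20 groups, or 4.7. The summed signal of Nfil3 was 763 in vehicle replicate 4, while the other vehicle sums ran from 1241 to 1336. At an intron 2 region of Npas2 (chr1:39282019-39282210) iMSBmal1KO replicate 1 stood at 190, and the other 3 between 15.9 and 19.1, and the region was not called. At the called intron 7 region of Npas2 (chr1:39318033-39318339) iMSBmal1KO replicate 2 stood at 194, and the other 3 between 124 and 134.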

How the results depend on the processing

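All 110 regions called (10 of the 5 genes) became 195 without a filter (12), 277 with trimmed-mean factors (11), 342 with cyclic loess (12), 363 with limma-voom and quality weights (11), 36 at a threshold of 0.01 (7) and 32 to 281 with 1 library left out (7 to 13). Of the Npas2 regions called, 7 were called in all 17 settings compared by region. Gene sums called numbered 33, 16 and 34 for all, promoter and other regions. These became 63, 38 and 60 with trimmed-mean factors, 69, 36 and 83 with loess, and 7 to 132, 8 to 383 and 11 to 50 with 1 library left out. Promoter sums numbered 25 with a pseudocount of 5, and with a 2000 bp window promoter and other sums numbered 27 and 21.

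The Npas2 sums passed the threshold in every setting run. The Arntl sum passed in 1 of 13 alternatives, with loess (0.43, adjusted p = 0.0152, limma), and its non-promoter sum in 4 of 15. Its non-promoter change was 0.49 with trimmed-mean factors, 0.58 with loess and 0.52 to 0.68 with 1 library left out, and its promoter change was -0.00173 with loess. The Clock promoter change ranged from 0.39 to 0.77 with 1 library left out. With 1 library left out the Nfil3 sum ranged from -0.055 to 0.22 (negative without vehicle replicate 4), and its promoter sum from -0.11 (without vehicle replicate 4; -0.082 without iMSBmal1KO replicate 2) to 0.088. That promoter sum was -0.10 with trimmed-mean factors and -0.14 with loess. Promoter against other change turned to -0.25 at Clock over regions past the filter, and at Cry1 to -0.15 without vehicle replicate 4 and -0.021 without iMSBmal1KO replicate 1, with a highest value of 0.18 without vehicle replicate 3. The region at the Arntl start turned to -0.064 with trimmed-mean factors, -0.067 with loess, -0.0098 with limma-voom, and -0.036, -0.066 and -0.0031 without vehicle replicate 2, vehicle replicate 4 or iMSBmal1KO replicate 2 (highest 0.16), and its neighbour with TAGGTCA to -0.079 without vehicle replicate 4 (highest 0.57). The Cry1 region at 278 bp turned to 0.058 without iMSBmal1KO replicate 3 (lowest -0.28), and the strongest non-promoter region of Nfil3 to -0.0082 with loess, -0.10 without vehicle replicate 4 and -0.029 without iMSBmal1KO replicate 2 (highest 0.40). The cause of these changes was not tested.

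Same-numbered libraries shared only a number (correlations of their deviations -0.06, 0.14, 0.02 and 0.02, and 0 of 4 correlated best with its own number). With the replicate number as a block, 100 regions were called (8 of the 5 genes), gene sums called were 130, 154 and 35, the Clock promoter change of 0.64 passed the threshold (adjusted p = 0.0455), the Arntl region at 43343 bp (0.0745) and the Npas2 region at chr1:39193654-39193803 (0.0578) did not, and the differences of Npas2 from Arntl, Clock, Cry1 and Nfil3 (0.86, 0.72, 0.80 and 1.19) had an exact permutation p of 0.125, the smallest that 16 arrangements allow. With 1 library left out they ranged from 0.77 to 0.96, 0.64 to 0.90, 0.70 to 0.99 and 1.04 to 1.33, and without an iMSBmal1KO library their adjusted exact permutation p was 0.0571. The edgeR and DESeq2 alternatives were not run, because the deposited signal could not be shown to give whole reads throughout. The stricter filter removed no further region. With 4.31 M read equivalents in vehicle replicate 4, where a signal of 3.13 is 1 read, regions with a signal under about 10 rest on few reads there.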
